A study of Mus musculus with 16 samples.

Results

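The ATP-binding cassette (ABC) genes were taken as every gene name on the array that consists of Abc, a subfamily letter from a to g and a number. This rule found 50 of the 30214 gene names, with 73 of the 39429 probes. Of these, 46 encode membrane transporters, and 4 (Abce1, Abcf1, Abcf2 and Abcf3) encode soluble proteins that work on ribosomes and are described apart. A gene was tested when at least 1 of its probes was well above background, by the scanner software's own call, on at least 2 of the 4 arrays of a group. This left 28 transporters and all 4 ribosome-linked genes, so 32 members stood among 19367 genes tested.

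ABC transporters use the energy of ATP to carry substrates across a membrane, most often out of the cell. In hepatocytes those of the canalicular membrane secrete bile acids, phospholipid, cholesterol, drugs and conjugated anions into bile, those of the basolateral membrane return conjugates to the blood, and others serve mitochondria, peroxisomes and lysosomes. ABCE1 splits ribosomes after termination, and the ABCF proteins act in translation or ribosome-bound stress responses, so these genes share the ATP-binding cassette with the transporters and no substrate path.

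AML12 cells, a non-tumourigenic line of mouse hepatocytes, expressed either a control shRNA of scrambled sequence or one directed at eIF6, a factor that binds the large ribosomal subunit. All 4 groups received doxycycline, which switches the shRNA on, and then insulin for 1 h, so no array shows the effect of doxycycline or of insulin. The insulin dose is 100 nM in the descriptions of the samples and 100 mM in their treatment protocol. After a sucrose gradient, the fractions with polysomes (mRNA with several ribosomes) and the lighter subpolysomal fractions were pooled apart, and each pool was hybridized on a one-colour Agilent array, with 4 arrays for each shRNA and fraction. Each shRNA came from a single inducible vector in this 1 cell line, which limits the groups as a model of the loss of eIF6. The polysomal change and the subpolysomal change are the log2 signal in eIF6 shRNA cells minus that in scramble cells in each pool, and the change in translational efficiency is the first minus the second. A gene was called by limma at a Benjamini-Hochberg adjusted p under 0.05 over all genes tested. Errors are SD over 4 arrays for levels and standard errors of the fit for differences.

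Between 20196 and 24960 probes per array were well above background, and no spot was saturated. Eif6 itself, the target of the shRNA, had a log2 signal of 12.95 ± 0.011 (SD, n = 4) on scramble polysomal arrays and of 11.89 ± 0.084 (SD, n = 4) with its shRNA, without overlap. It fell on polysomes by 1.05 ± 0.079 on the log2 scale (adjusted p = 1.46e-07). In the subpolysomal pool its difference was 0.015 ± 0.079 (adjusted p = 0.915), which turned to -0.22 under scaling to spike-in probes. With that scaling its polysomal difference was -1.36 and was not called (adjusted p = 0.0989). Of 12 hepatocyte markers 11 were tested, Fgb was well above background on 0 arrays, and Alb on 7 of 16. Of the 11, 2 (Tat and Ttr) were called higher on polysomes and 1 (Ttr) in the subpolysomal pool. Fibroblast markers moved with the shRNA: 4 of 5 (Col1a1, Col1a2, Col3a1 and Des) fell on polysomes and 3 of 5 in the subpolysomal pool. Of 4 macrophage markers 3 were tested, and Csf1r fell in both pools. None of the 4 biliary and 2 endothelial markers tested was called in either pool. Of all genes tested, 10.7% were called lower and 11.1% higher on polysomes, and 12.3% and 11.9% in the subpolysomal pool. The log2 of the summed fibroblast marker signal on polysomes was 16.63 to 17.55 in scramble arrays and 14.12 to 15.05 in eIF6 shRNA arrays. In such bulk RNA, fewer cells of a type and less RNA per cell cannot be told apart, and the part of these markers in the results below was not tested. By the median absolute difference over all genes, the replicate 4 polysomal arrays of both shRNAs lay farthest from the mean of the other 3 arrays of their group. They had 0.289 and 0.262, against 0.112 to 0.205 on the other arrays. By the SD of these differences, subpolysomal replicate 1 of the scramble arrays lay farthest, at 0.479 against 0.476 and 0.452 for the replicate 4 polysomal arrays. Calls of the differences between shRNAs that changed without replicate 4 are given beside the value, and those of the ratio between pools as counts.

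Of the ABC transporters, 24 were well above background on all 16 arrays and 13 on none. The undetected set held the bile salt export pump Abcb11 and both partners of the sterol exporter, Abcg5 and Abcg8, so 5 of 8 canalicular exporters were measured. The A subfamily members outside the cholesterol and phospholipid group were also mostly out of range, with 3 of 12 tested, and the cholesterol exporter Abcg1 was detected on 0 arrays. All 4 mitochondrial members and both lysosomal ones (Abcb9 and Abcd4) were measured on all 16 arrays, as were all 4 ribosome-linked genes.

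With eIF6 shRNA, members moved in both directions and mostly alike in the 2 pools. On polysomes 6 members were called lower, against 10.7% of all genes tested, and 8 were called higher, against 11.1%. In the subpolysomal pool 4 were lower, with 12.3% of all genes, and 7 higher, with 11.9%. The 4 called lower and the 7 called higher in the subpolysomal pool were called with the same sign on polysomes. Of all genes, so were 1483 of the 2391 called lower and 1309 of the 2295 called higher in the subpolysomal pool. Such agreement was thus common among all genes. The median change of the 32 members was 0.25 on polysomes and 0.15 in the subpolysomal pool, and that of all genes tested was 0.016 and 0.025. All 14 polysomal differences called had the same sign on each of the 4 slides, and so did 10 of the 11 subpolysomal ones, with Abca2 at -0.11 on 1 slide. These differences had been called on the same arrays, so the agreement of signs is no separate support for them. Without replicate 4, 6 members were lower and 13 higher on polysomes (12.2% and 13.6% of all genes), and 5 and 13 in the subpolysomal pool (16% and 15.8%).

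Quantile normalization sets every array to the same distribution, so these differences are relative to the bulk of mRNAs. Scaled to 7 spike-in probes, the median of all genes moved to -0.47 on polysomes and -0.23 in the subpolysomal pool. Abca1, Abcb1b and Abcb4 were then the members called on polysomes, all lower, and 0 were called in the subpolysomal pool. The 8 transporters called higher on polysomes kept a positive difference on that scale except Abcc5 at -0.022, and 0 of them passed the test. Of the 30 members shown, 12 polysomal and 9 subpolysomal differences changed sign on that scale, and of these Abcc5 on polysomes was the 1 that had been called.

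**Figure D1:**
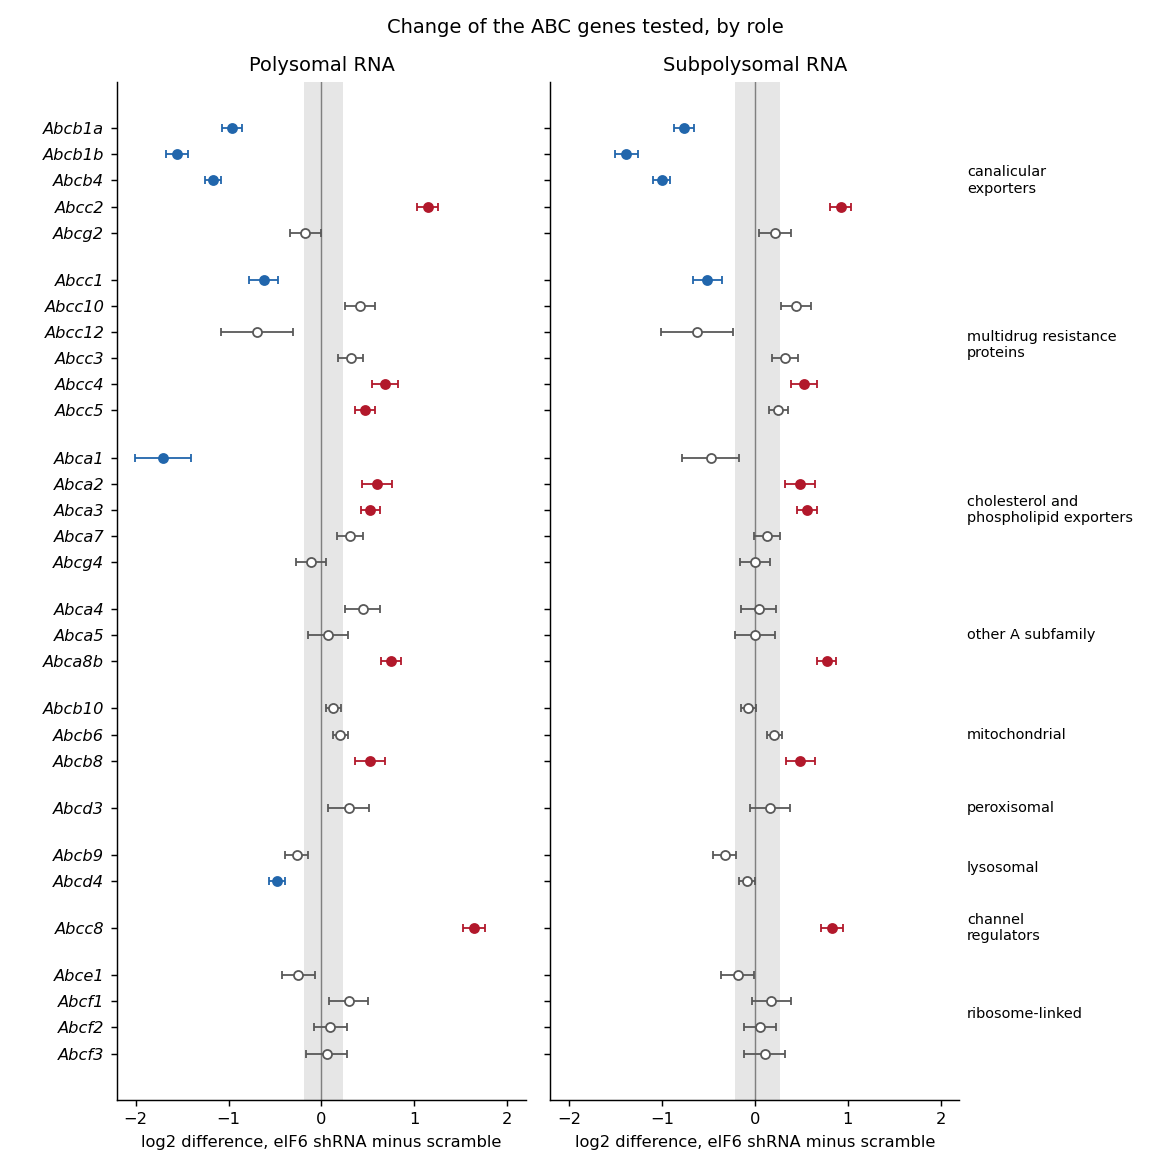
Log2 difference between eIF6 shRNA and scramble arrays for 30 of the 32 ABC genes tested (points, bars 1 standard error, 4 arrays per group), by role, with filled points for genes called at an adjusted p under 0.05 (blue lower, red higher) and a grey band for the middle of all genes tested from the lower to the upper quartile. Abcb1a, Abcb1b, Abcb4 and Abcc1 lie left of 0 in both pools and Abcc2 and Abcc8 right of it; under spike-in scaling 12 polysomal and 9 subpolysomal points change sign, Abcc5 on polysomes being the 1 of them that was called.

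The canalicular exporters split. Abcb1a and Abcb1b, the rodent P-glycoproteins that export drugs, and Abcb4, the flippase that brings phosphatidylcholine to bile, all fell in both pools. Abcc2, which exports bilirubin glucuronide and other conjugates, rose in both. Abcg2, a drug and urate exporter, passed the test in neither.

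Abcb1b had log2 signals of 8.43, 8.35, 8.16 and 8.58 on the scramble polysomal arrays and of 6.75, 6.86, 6.80 and 6.92 on those of eIF6 shRNA cells. In the subpolysomal pool the scramble arrays gave 9.14, 9.03, 9.04 and 8.57 and the eIF6 shRNA arrays 7.51, 7.59, 7.47 and 7.69. All 8 scramble arrays were above all 8 arrays of the knockdown. The difference was -1.55 ± 0.12 on polysomes (adjusted p = 2.24e-07) and -1.38 ± 0.12 below them (adjusted p = 1.12e-06), so the signal was 2.93-fold and 2.61-fold lower.

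Abcb4 followed with 8.97, 8.93, 8.76 and 8.94 on scramble polysomal arrays and 7.67, 7.71, 7.80 and 7.76 on those with the eIF6 shRNA. Its subpolysomal values were 9.20, 9.01, 8.98 and 8.83 against 7.93, 7.91, 8.01 and 8.16. The groups did not overlap in either pool. The fitted difference was -1.17 ± 0.089 on polysomes (adjusted p = 1.89e-07), and the subpolysomal signal was 2.01-fold lower (adjusted p = 1.30e-06).

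For Abcb1a the scramble polysomal arrays gave 9.09, 9.12, 8.94 and 9.22, and the eIF6 shRNA arrays 7.96, 8.11, 8.09 and 8.35. The subpolysomal arrays gave 8.82, 8.91, 8.90 and 8.58 against 7.92, 8.01, 7.99 and 8.22, again without overlap. Abcb1a was the least changed of the 3, with -0.96 ± 0.11 (adjusted p = 8.42e-06) on polysomes and -0.76 ± 0.11 (adjusted p = 0.000106) in the subpolysomal pool. Over 29 settings without spike-in scaling, the highest adjusted p of these 3 genes was 6.29e-05 on polysomes and 0.000620 in the subpolysomal pool.

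These 3 genes are neighbours. Their kept probes lie on the plus strand of mm9 chromosome 5, that of Abcb1a at chr5:8748075-8748134, that of Abcb1b at chr5:8865925-8865984 and that of Abcb4 at chr5:8959108-8959167. Aligned with each other without gaps, at most 24 of the 60 bases of these probes were identical between any pair of the 3. Between kept probes of any 2 members it was at most 28, with a median of 20. The probes were not compared with the transcripts of the neighbouring genes, so binding of a probe to a neighbour's mRNA was not tested. Within 500000 bases on either side, 7 other gene names were tested. Dbf4, the regulatory subunit of the CDC7 kinase, fell by 0.45 on polysomes and by 0.44 below them (adjusted p = 0.0103 and 0.0119). Rundc3b had -1.17 on polysomes (adjusted p = 0.0856) and -1.57 in the subpolysomal pool (adjusted p = 0.0209). The other 5, among them the carnitine octanoyltransferase gene Crot at 0.43 on polysomes (adjusted p = 0.25), passed the test in neither pool.

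As the genes fell together, the RefSeq promoters of the 3 (GRCm38.p6, from 250 bases before to 50 after the transcript start, all on the plus strand) are printed beside that of Abcc2, the canalicular exporter that rose. RefSeq promoters were matched for 38 of the 50 members. Capitals mark the CCAAT box CCAAT, the GC box GGGCGG, the antioxidant response core TGACNNNGC and the forkhead site GTAAACA, searched on both strands. No marked motif overlaps another.
Abcb1a, chr5:8566841-8567140: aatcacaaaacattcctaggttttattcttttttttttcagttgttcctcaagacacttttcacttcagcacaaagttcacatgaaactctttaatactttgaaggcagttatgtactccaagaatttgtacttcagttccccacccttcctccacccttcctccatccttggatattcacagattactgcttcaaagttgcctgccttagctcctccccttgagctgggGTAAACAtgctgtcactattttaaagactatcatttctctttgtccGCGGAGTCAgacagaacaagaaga
Abcb1b, chr5:8797897-8798196: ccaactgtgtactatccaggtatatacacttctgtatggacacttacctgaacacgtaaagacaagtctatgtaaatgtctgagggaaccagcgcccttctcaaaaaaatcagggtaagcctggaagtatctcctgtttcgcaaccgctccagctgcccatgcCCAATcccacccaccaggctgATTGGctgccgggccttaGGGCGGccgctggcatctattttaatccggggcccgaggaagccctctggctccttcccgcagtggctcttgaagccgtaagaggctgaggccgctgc
Abcb4, chr5:8893471-8893770: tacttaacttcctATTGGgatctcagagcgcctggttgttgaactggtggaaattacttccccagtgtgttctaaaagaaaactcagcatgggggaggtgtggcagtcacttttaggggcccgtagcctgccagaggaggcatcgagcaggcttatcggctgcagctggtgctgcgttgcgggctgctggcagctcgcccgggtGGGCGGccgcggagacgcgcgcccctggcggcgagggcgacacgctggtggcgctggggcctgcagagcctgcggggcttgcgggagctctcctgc
Abcc2, chr19:43782058-43782357: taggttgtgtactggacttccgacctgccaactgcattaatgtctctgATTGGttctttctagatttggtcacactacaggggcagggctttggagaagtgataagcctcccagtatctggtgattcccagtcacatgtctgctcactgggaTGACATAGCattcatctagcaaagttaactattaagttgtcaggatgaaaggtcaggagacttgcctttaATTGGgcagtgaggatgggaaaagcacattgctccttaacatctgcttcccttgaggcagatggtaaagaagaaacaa

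The 3 neighbours had no motif of this search in common. Abcb1b and Abcb4 each held CCAAT and GGGCGG, with GGGCGG starting 48 and 46 bases before the transcript start. Abcb1a held neither and instead had GTAAACA and the core TGACNNNGC. Abcc2, which rose, held both CCAAT and TGACNNNGC, so neither motif set the genes that fell apart from it. Of all 32851 promoters of this length, 37.4% held CCAAT, 35.7% GGGCGG, 12.4% TGACNNNGC and 3.6% GTAAACA. Among the 30 promoters of tested members, of which 3 belong to Abcg2, the shares were 33.3%, 63.3%, 23.3% and 3.3% in the same order. The shares over the promoters of all genes tested were not taken, so these values are not set against detected genes. Base composition differed as well, with 40.3% G and C for Abcb1a, 55.0% for Abcb1b, 64.0% for Abcb4 and 45.0% for Abcc2. These matches describe letters in 1 window and say nothing of binding.

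Abcc2, with its probe at chr19:43912079-43912138 (mm9, plus strand), gave 7.02, 7.03, 6.96 and 7.21 on scramble polysomal arrays and 8.09, 8.18, 8.21 and 8.33 on those with the eIF6 shRNA. The subpolysomal values were 6.46, 6.82, 6.56 and 6.87 against 7.38, 7.75, 7.55 and 7.72. The arrays of the 2 shRNAs did not overlap in either pool. Its rise was 1.14 ± 0.11 on polysomes (adjusted p = 2.21e-06) and 0.92 ± 0.11 below them (adjusted p = 2.50e-05), or 2.21-fold and 1.90-fold.

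Abcg2 gave 11.56, 11.58, 11.49 and 12.19 on scramble polysomal arrays and 11.19, 11.29, 11.70 and 11.94 with the eIF6 shRNA, and these ranges overlap. The difference was -0.17 ± 0.17 on polysomes (adjusted p = 0.553) and 0.21 ± 0.17 in the subpolysomal pool (adjusted p = 0.402), the latter -0.047 with spike-in scaling. Replicate 4 of the scramble polysomal arrays was the high one.

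**Figure D2:**
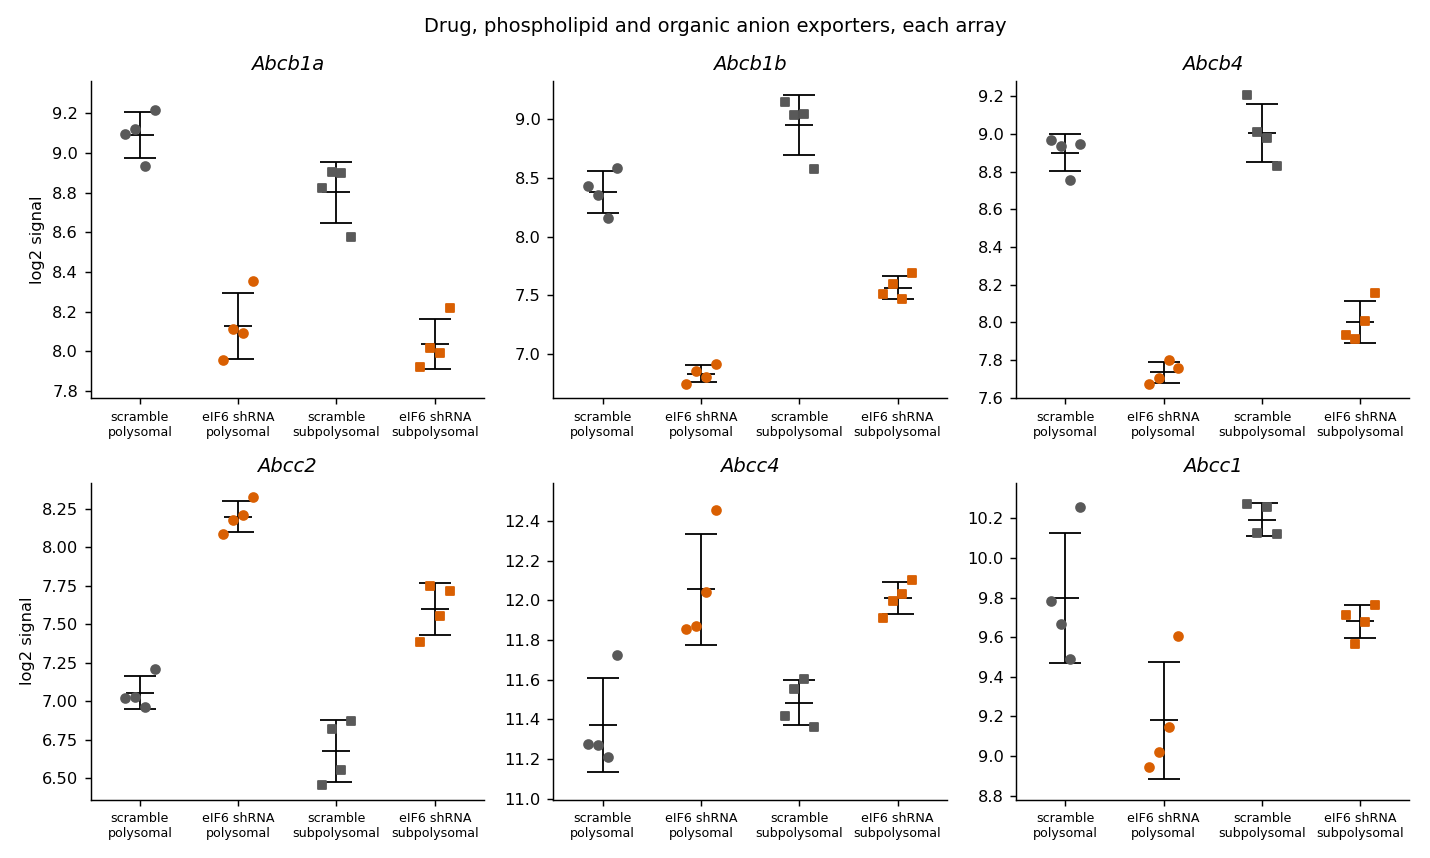
Log2 signal of 6 exporters on each of the 16 arrays (circles polysomal, squares subpolysomal, grey scramble, orange eIF6 shRNA; within a group replicates 1 to 4 from left to right, mean with SD as a bar; each panel has its own axis). Abcb1a, Abcb1b and Abcb4 are lower with the eIF6 shRNA in both pools without overlap, Abcc2 and Abcc4 are higher without overlap, and Abcc1 overlaps on polysomes through replicate 4 of the eIF6 shRNA arrays.

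The multidrug resistance proteins of the C subfamily also went both ways. Abcc4, an exporter of cyclic nucleotides and conjugated steroids at the basolateral membrane, rose in both pools, and Abcc1, an exporter of glutathione conjugates, fell in both. Of 7 such genes 6 were tested: 1 was lower and 2 were higher on polysomes, and 1 was lower and 1 higher in the subpolysomal pool (all genes 10.7% and 11.1%, then 12.3% and 11.9%). Abcc6 was detected on 0 arrays.

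Abcc4 had 11.28, 11.27, 11.21 and 11.73 on scramble polysomal arrays against 11.86, 11.87, 12.04 and 12.46, a difference of 0.68 ± 0.14 (adjusted p = 0.00195). In the subpolysomal pool, 11.36 to 11.60 stood against 11.91 to 12.10, a difference of 0.53 ± 0.14 (adjusted p = 0.0119). Replicate 4 was the highest polysomal array of both shRNAs, and the groups still did not overlap.

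Abcc1 had 9.78, 9.67, 9.49 and 10.26 on scramble polysomal arrays and 8.94, 9.02, 9.15 and 9.61 with the eIF6 shRNA. The fall was 0.62 on the log2 scale, with a standard error of 0.16 (adjusted p = 0.00990), although the ranges overlapped. In the subpolysomal pool 10.27, 10.13, 10.26 and 10.12 fell to 9.71, 9.57, 9.68 and 9.76 without overlap, a difference of -0.51 ± 0.16 (adjusted p = 0.0275). That subpolysomal call was lost when any 1 of 5 arrays was left out, with adjusted p up to 0.0724.

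Abcc5, named after its value was seen, exports cyclic nucleotides and rose on polysomes by 0.47 ± 0.10 (adjusted p = 0.00406), with 0.25 ± 0.10 in the subpolysomal pool (adjusted p = 0.0976). Its 4 probes gave polysomal differences from 0.23 to 0.87, and with the brightest probe alone the call was lost (0.23, adjusted p = 0.414). Abcc3, an exporter of glucuronides and bile salts, had 0.31 ± 0.14 and 0.32 ± 0.14 (adjusted p = 0.129 and 0.102). Without replicate 4 it was called higher in both pools, at 0.30 and 0.22 (adjusted p = 0.0156 and 0.0452), as was Abcc10 at 0.49 and 0.45 (adjusted p = 0.00114 and 0.00187), while under spike-in scaling on all arrays their polysomal differences were -0.12 and -0.057.

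Among the cholesterol and phospholipid exporters 5 of 6 were tested, of which 1 was lower and 2 higher on polysomes and 2 were higher in the subpolysomal pool (all genes 10.7% lower and 11.1% higher, and 11.9% higher). The lower one was Abca1. Abca1 loads cholesterol and phospholipid onto apolipoprotein A-I. It was well above background on 3 of 4 scramble polysomal arrays and on 0 of the 12 other arrays. The scramble polysomal values were 2.86, 3.02, 2.68 and 3.65, with 1.25, 1.30, 0.97 and 1.89 for eIF6 shRNA cells. The latter lie below the detected range. With the lowest signal detected on each array in their place, the fold was 1.20. An undetected spot can lie above that signal, so no least fold can be given. Abca1 passed the filter only through the group where it was high, so its call, which is among the 6 lower on polysomes and the 3 with spike-in scaling, is no support for a change.

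Abca3, the phospholipid transporter of lamellar bodies, had 12.36, 12.52, 12.56 and 12.53 on scramble polysomal arrays and 12.94, 12.86, 13.20 and 13.07 with the eIF6 shRNA. It rose by 0.53 ± 0.11 (adjusted p = 0.00205) on polysomes and by 0.56 ± 0.11 in the subpolysomal pool (adjusted p = 0.00137), where 11.31 to 11.79 became 12.01 to 12.26. The groups were separate in both pools. Abca2, a lysosomal sterol transporter, gave 8.39, 8.39, 8.53 and 8.49 against 9.06, 9.21, 8.95 and 8.96 on polysomes, a difference of 0.60 ± 0.16 (adjusted p = 0.0145). Its subpolysomal difference of 0.49 ± 0.16 passed narrowly (adjusted p = 0.0404), with replicate 4 of the scramble arrays at 8.61 inside the eIF6 shRNA range of 8.30 to 8.67, and it was lost when any 1 of 9 arrays was left out, with the replicate block (adjusted p = 0.0657), with 75th percentile scaling (0.0744), without a filter (0.0679) and with spike-in scaling. Abca7, which acts in phagocytosis and lipid efflux, had 0.31 ± 0.14 on polysomes (adjusted p = 0.139), 0.33 without replicate 4 (adjusted p = 0.0326) and -0.13 with spike-in scaling.

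Abca8b, a lipid transporter of the A subfamily, rose in both pools by a like amount. Its scramble polysomal arrays gave 5.80, 5.76, 5.61 and 5.98 and its eIF6 shRNA arrays 6.40, 6.45, 6.65 and 6.64. The differences were 0.75 ± 0.11 (adjusted p = 9.34e-05) and 0.77 ± 0.11 (adjusted p = 8.94e-05), with no overlap in either pool.

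Of the organelle transporters tested, 1 of 4 mitochondrial ones was higher on polysomes, 0 of 2 peroxisomal ones were called and 1 of 2 lysosomal ones was lower, beside 10.7% lower and 11.1% higher of all genes. Abcb8, of the inner mitochondrial membrane, was the mitochondrial member called, with 9.17, 9.17, 9.34 and 8.89 against 9.89, 9.89, 9.55 and 9.32 on polysomes. Its differences were 0.52 ± 0.16 (adjusted p = 0.0258) and 0.49 ± 0.16 (adjusted p = 0.0340). The ranges overlapped, and leaving out any 1 of 5 arrays ended the polysomal call and any 1 of 6 the subpolysomal one, which was also lost with the replicate block (adjusted p = 0.0576), 75th percentile scaling (0.0652) and spike-in scaling. Abcb10, which acts in haem synthesis, had a polysomal difference of 0.13 ± 0.083 (adjusted p = 0.342), or -0.34 with spike-in scaling. Abcb6, a porphyrin transporter, was called without replicate 4, at 0.28 and 0.23 (adjusted p = 0.0215 and 0.0473), against 0.20 ± 0.080 and 0.21 ± 0.080 with it and -0.26 and -0.078 with spike-in scaling. Abcd3, a peroxisomal carrier of fatty acids, passed in neither pool.

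Abcd4, named after its value was seen, takes part in the export of cobalamin from lysosomes and was called on polysomes alone. Its polysomal values were 9.79, 9.62, 9.69 and 9.99 in scramble cells and 9.16, 9.39, 9.34 and 9.27 in eIF6 shRNA cells. The polysomal difference was -0.48 ± 0.086 (adjusted p = 0.000737) and the subpolysomal one -0.085 ± 0.086 (adjusted p = 0.528). The difference between the pools, -0.40 ± 0.12, was not called (adjusted p = 0.145), so the pools were not shown to differ. Abcb9, a lysosomal peptide transporter, was called lower in the subpolysomal pool without replicate 4, at -0.45 (adjusted p = 0.0332), against -0.33 ± 0.12 with it (adjusted p = 0.0710).

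Abcc8, the sulphonylurea receptor that regulates the ATP-sensitive potassium channel of insulin-secreting cells, had the largest fitted increase among members on polysomes as the mean of its 2 probes, while the probe detected on all 16 arrays gave 0.67, below Abcc2 and Abca8b. The mean of its 2 probes was 4.72, 4.29, 4.15 and 4.72 on scramble polysomal arrays and 6.14, 6.17, 6.06 and 6.07 with the eIF6 shRNA. The rise was 1.64 ± 0.12 (adjusted p = 1.00e-07), against 0.83 ± 0.12 in the subpolysomal pool (adjusted p = 0.000121), where 4.59 to 4.80 became 5.41 to 5.59. Neither pool overlapped.

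It was also the 1 member called for translational efficiency, at 0.81 ± 0.17 (adjusted p = 0.0258). No member was lower and 1 of 32 was higher, while 1.1% of all genes were called lower and 0.403% higher. By the two-sided exact permutation test on the log2 ratio of the 2 pools, taken between arrays of the same replicate number (4 against 4), a pairing the labels do not state, Abcc8 and Abcd4 had p = 0.0286, the smallest that 70 arrangements allow. With so few arrangements an adjustment over all genes can hardly be passed, and it gave 0.359. The other 13 members called on polysomes had changes in efficiency from -1.23 (Abca1, which was out of range on 13 of 16 arrays) to 0.22.

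The 2 Abcc8 probes did not give the same result. They lie on the minus strand of mm9 chromosome 7, at chr7:53359921-53359980 and chr7:53359908-53359967, and share 47 of their 60 bases, so they are no independent measurements. The bases that differ are shown because the call was lost with the first probe alone, and whether these bases matter was not tested. The first probe starts with 13 bases of its own, and the second ends with 13 bases of its own, here within its last 30 bases. The polyadenylation hexamer AATAAA is in capitals, and its first base is shared by both probes.
Abcc8, first 13 bases of the probe at chr7:53359921-53359980: agcgtgccgcccc
Abcc8, last 30 bases of the probe at chr7:53359908-53359967: ctgtaaatcacttgtaAATAAAgaaattaa

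The first probe was well above background on all 16 arrays and gave 0.67 on polysomes, 0.51 in the subpolysomal pool and 0.17 for efficiency. The second was well above background on 2 of 4 scramble polysomal arrays, 0 of 4 scramble subpolysomal arrays, 4 of 4 eIF6 shRNA polysomal arrays and 3 of 4 eIF6 shRNA subpolysomal arrays. Its polysomal values of 3.48, 2.99, 2.69 and 3.39 in scramble cells stood against 5.77, 5.80, 5.75 and 5.63. Its subpolysomal values were 2.68 to 3.17 in scramble cells and 3.79 to 4.26 with the eIF6 shRNA. With the lowest signal detected on each scramble array as a floor, the fold was 1.47. An undetected spot can lie above that floor, so 1.47 is no least value. The fitted efficiency of this probe, 1.45, rests on scramble arrays below the detected range. With the brightest probe alone the efficiency of Abcc8 was 0.17 (adjusted p = 0.740). The call was also lost with normexp background correction, without a detection filter, with only probes detected on all 16 arrays, with the authors' table, with spike-in scaling, and when any 1 of 6 arrays was left out, where the adjusted p reached 0.0613.

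**Figure D3:**
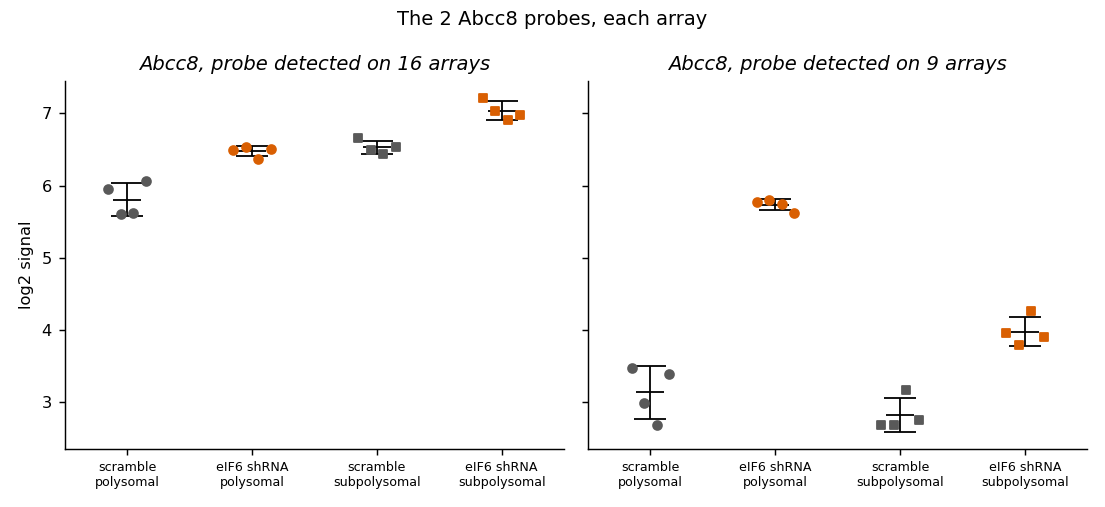
Log2 signal of the 2 overlapping Abcc8 probes on each of the 16 arrays (circles polysomal, squares subpolysomal, grey scramble, orange eIF6 shRNA; mean with SD as a bar). The probe detected on all 16 arrays is higher with the eIF6 shRNA by 0.67 and 0.51 in the 2 pools, while the probe detected on 9 arrays is at 5.63 to 5.80 on the eIF6 shRNA polysomal arrays and at 4.26 or lower elsewhere.

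None of the 4 ribosome-linked genes was called in either pool or for translational efficiency. Abce1, the ribosome recycling factor, gave 12.36, 12.21, 12.03 and 13.08 on scramble polysomal arrays and 11.99, 12.08, 12.11 and 12.51 with the eIF6 shRNA, a difference of -0.25 ± 0.18 (adjusted p = 0.392). The subpolysomal arrays were tighter, with 12.71, 12.64, 12.58 and 12.59 against 12.50, 12.36, 12.47 and 12.44. These did not overlap, but the difference of -0.19 ± 0.18, with its error from all 4 groups, did not pass (adjusted p = 0.497).

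Abcf1, which binds eIF2 and ribosomes, had 0.29 ± 0.21 on polysomes (adjusted p = 0.390) and 0.18 ± 0.21 in the subpolysomal pool (adjusted p = 0.594). Abcf2 had 0.093 ± 0.18 and 0.054 ± 0.18 (adjusted p = 0.790 and 0.864), and Abcf3 0.055 ± 0.22 and 0.10 ± 0.22 (adjusted p = 0.911 and 0.789). With spike-in scaling these 3 genes turned to -0.15, -0.35 and -0.42 on polysomes and to -0.083, -0.21 and -0.17 in the subpolysomal pool. In the subpolysomal pool replicate 4 of the scramble arrays stood above the others, at 11.22 against 10.41 to 10.67 for Abcf1 and at 11.70 against 10.89 to 11.03 for Abcf2. Without replicate 4 both were called higher there, Abcf1 at 0.42 ± 0.14 (adjusted p = 0.0453) and Abcf2 at 0.32 ± 0.081 (adjusted p = 0.0133). Their efficiency changes lay between -0.062 (Abce1) and 0.12 (Abcf1).

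**Figure D4:**
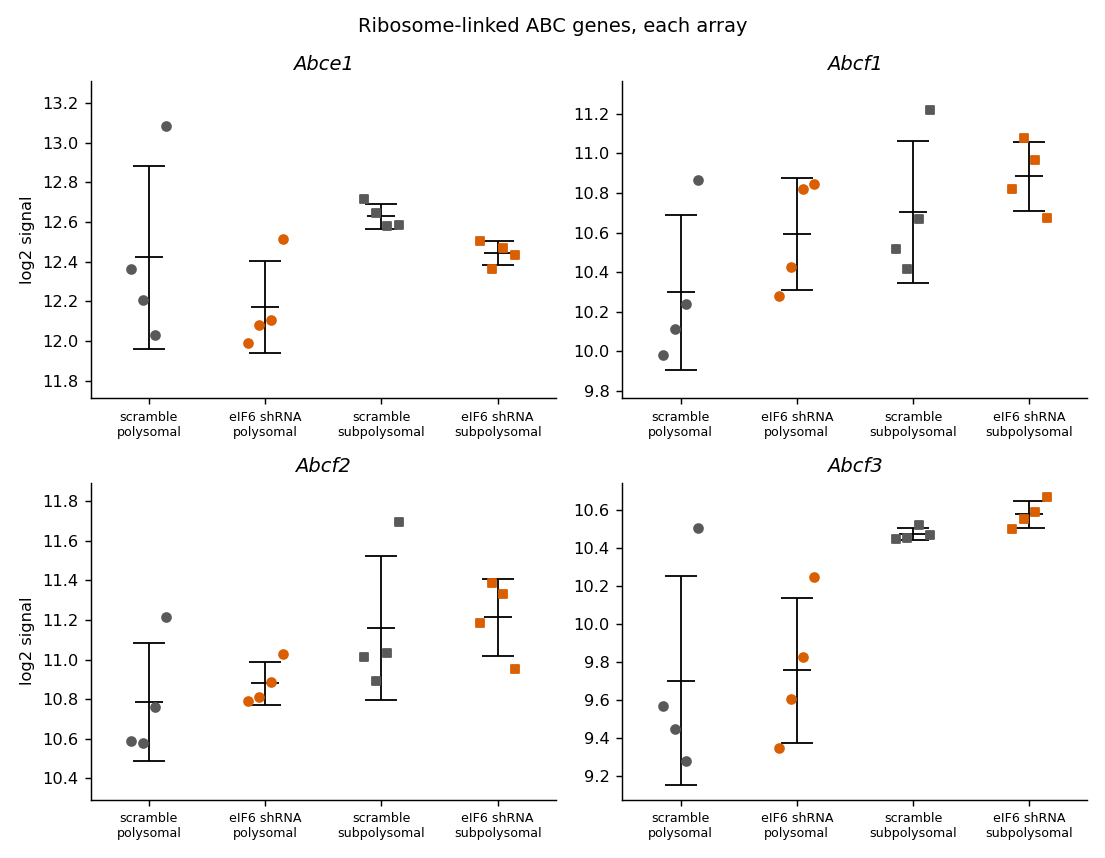
Log2 signal of Abce1, Abcf1, Abcf2 and Abcf3 on each of the 16 arrays (circles polysomal, squares subpolysomal, grey scramble, orange eIF6 shRNA; replicates 1 to 4 from left to right, mean with SD as a bar). The differences between shRNAs, from -0.25 to 0.29, were not called, they change sign for Abcf1 to Abcf3 under spike-in scaling, and replicate 4 is the highest polysomal array of each gene in both groups.

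The mRNAs of the family were spread widely over the gradient. In scramble cells the polysomal signal over the subpolysomal one, as a log2 ratio, was called lower than 0 for 8 members, with 28.4% of all genes, and higher for 10, with 31.7%. In eIF6 shRNA cells it was lower for 9 (28.7% of all genes) and higher for 10 (32.1%). The scramble count rests on single arrays: the number called lower was 13 without polysomal replicate 4, and 5 without polysomal replicate 1, 2 or 3 or subpolysomal replicate 3. Without replicate 4 of every group, 13 members were lower and 8 higher in scramble cells and 13 and 10 in eIF6 shRNA cells, with Abce1, Abcf1 and Abcf2 called lower in both and Abcb1a and Abcg2 no longer called higher in scramble cells. The sign of such a ratio depends on the scaling: under spike-in scaling the median of all genes was 1.52 in scramble cells and under quantile normalization within each fraction 1.38, so the ratios are given here relative to the median of all genes.

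Abca3 stood 0.90 above that median, at the 87.0 percentile of all genes, and Abcb6 0.75 above it. Over 14 settings of the processing their distance ranged from 0.87 to 1.37 and from 0.69 to 1.02. Abca4, best known as a retinoid transporter, was 1.09 above (0.33 to 1.25 over the 13 settings that tested it). The ratio of Abca1 had the highest fitted value, but its subpolysomal signal was below the detected range and no fold can be given.

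At the other end, Abcg4, a sterol exporter, lay 1.30 below the median of all genes, at the 8.21 percentile, with -1.55 to -0.48 over the settings. Abcc3 was 0.89 below it (-1.04 to -0.44), Abca7 0.87 below (-0.97 to -0.44), Abcf3 0.81 below (-1.06 to -0.46) and Abcb1b 0.60 below (-0.77 to -0.37). Abcc3, Abca7 and Abcf3 lay closer to each other than their standard errors of 0.14 to 0.22, so their order is not resolved. Relative to the same median, its neighbour Abcb1a stood at 0.26 (0.16 to 0.50 over the settings) and Abcb4 at -0.14, which ran from -0.19 to 0.10, and the differences between these genes were not tested.

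The ratio of Abcf3 moved with 1 replicate. Between scramble arrays of the same number it was -0.87, -1.01 and -1.24 for replicates 1 to 3 and 0.036 for replicate 4. Abce1 gave -0.35, -0.44 and -0.55 against 0.50. In both genes the polysomal array of replicate 4 was the high one, and the subpolysomal arrays of scramble cells spanned 10.45 to 10.52 for Abcf3.

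**Figure D5:**
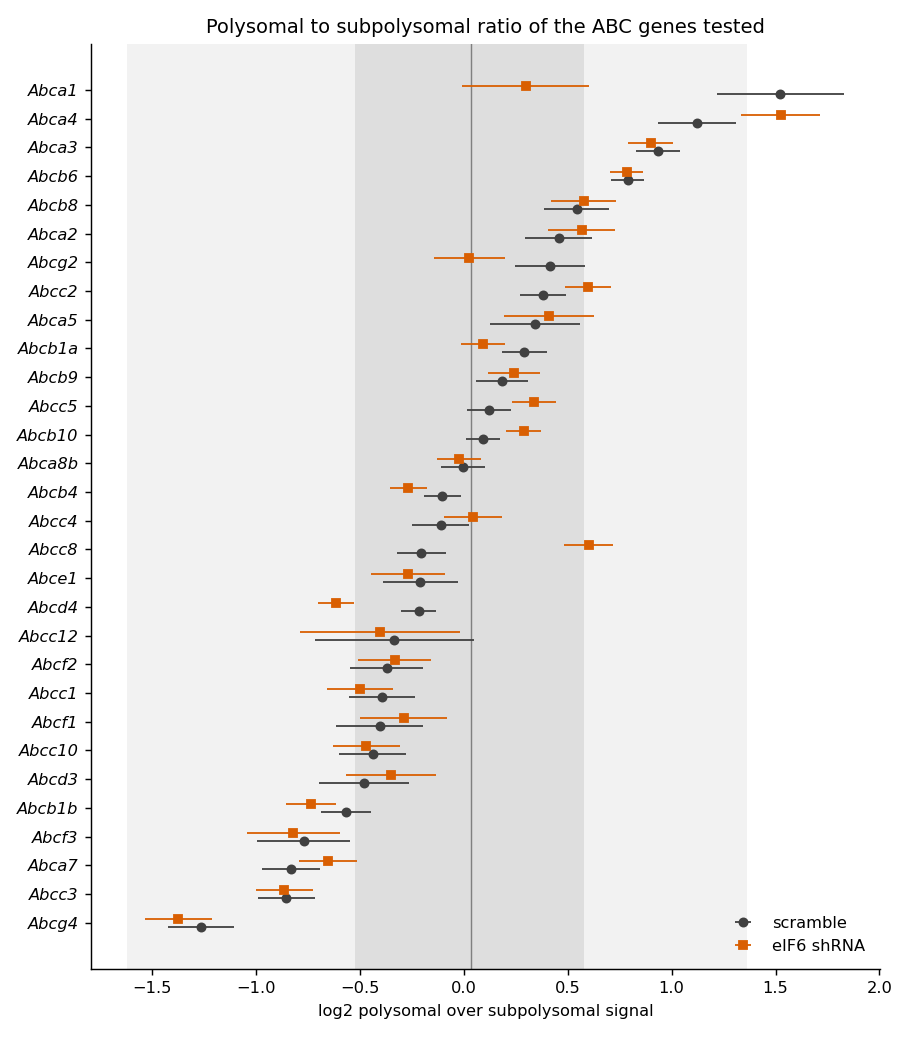
Polysomal over subpolysomal signal (log2 ratio) for 30 of the 32 ABC genes tested, ordered by scramble cells (grey circles scramble, orange squares eIF6 shRNA, bars 1 standard error, 4 arrays per group and pool), over bands that hold the middle of all genes in scramble cells between the quartiles and, in light grey, all but the lowest and the highest 5%. The order runs from Abcg4 to Abca1 and Abcc8 has the widest gap to the right with the eIF6 shRNA; the sign of a ratio depends on the scaling, and the place relative to the line at the median of all genes is what can be read.

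The lists of genes that work with these transporters are short, and their counts stand beside 10.7% lower and 11.1% higher of all genes on polysomes and 12.3% and 11.9% in the subpolysomal pool. Of the antigen peptide transporter genes, which belong to the family under other names, Tap2 fell on polysomes by 0.74 (adjusted p = 0.0161) and Tap1 did not pass. Of 7 nuclear receptors that control ABC genes, Nr1i2 was called lower on polysomes, but it passed the filter only through the scramble polysomal group (3 arrays, against 0 with the eIF6 shRNA), and Ppara was higher, at 0.27 ± 0.084 (adjusted p = 0.0303). The oxysterol receptors Nr1h2 and Nr1h3 and the bile acid receptor Nr1h4 had 0.11 to 0.17 on polysomes, and 0 of the 7 was called in the subpolysomal pool. Of 5 uptake carriers for bile acids and organic anions 3 were tested and 0 called in either pool. Peroxisome membrane biogenesis gave Pex16, lower in both pools, and Pex19, higher in the subpolysomal pool, out of 3. None of the 6 mitochondrial iron-sulphur and haem genes was called in either pool. Of the 10 partners of ABCE1 and ABCF1 in recycling and initiation, the initiation factor subunit Eif2s2 was lower on polysomes, at -0.29 (adjusted p = 0.00992), and 0 were called in the subpolysomal pool.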

How the data were processed

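RNA of polysomal and subpolysomal gradient pools (4 arrays for each shRNA and pool, 16 in all) was hybridized by the authors to one-colour Agilent mouse arrays. The deposited scanner files hold spot intensity that Feature Extraction had corrected for background, with no scaling between arrays. The software version is 10.7.7.1 in the labels and 10.7.3.1 in the file headers. The authors also deposited a table of normalized log2 values, used here as an alternative, whose columns correlated at 0.994 or more with the scanner values and had a median of 4.64, with the centring unstated.

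Here the processed intensity was taken to log2, spots that the scanner software flagged as outliers were left out, and the spots of a probe were averaged. The kept probes were then quantile normalized over the 16 arrays and averaged for each gene. Control spots were left out. Probes were kept if at least 2 of a group's 4 arrays had them well above background. One limma model (limma 3.58.1, R 4.3.3) with a mean for each group was fitted to all genes, with Benjamini-Hochberg adjustment at 0.05 for each comparison, and was tested on simulated data. Efficiency was also tested by exact permutation. Groups and replicate numbers came from the labels, which describe biological replicates; the number of arrays limits the precision.

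Single values of 2 members tested are not reported here, though they enter the fits and counts. The members and lists were chosen with earlier results of these data known. Named with values were the ribosome-linked genes, transporters called in a comparison (at most 10 per comparison), detected canalicular exporters, the 5 highest and 5 lowest ratios, and Eif6. Outside this rule, Abcc5 and Abcd4 are marked as chosen after their values were seen. Abcb9, Abcb10 and Abcc10 are also outside it and are given with values. Other members outside it enter counts or are named without a difference. Alternatives covered scaling (75th percentile, spike-in probes, quantile within each fraction), normexp background, the filter, the brightest probe, the authors' table and leaving out each array. They also covered slide or replicate number as a fixed block, and shRNA combined with replicate number as a random block. Leaving out replicate 4 of every group was chosen after seeing the data. Promoters were read from RefSeq (GRCm38.p6), and probe positions are those of the array design (mm9).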

Additional observations from a re-analysis of the deposited data

Results flagged for a closer look

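In 92 combinations of 23 genes and 4 groups, 5 had a highest or lowest array farther from the rest than the critical value of Dixon's test, and chance flags about 1 in 20. Among the scramble polysomal arrays, replicate 4 was high for Abcc4 (11.73 on the log2 scale, others 11.21 to 11.28), Abcg2 (12.19, others 11.49 to 11.58) and Abca7 (11.12, others 10.59 to 10.64), and replicate 3 was low for Abcb4 (8.76, others 8.93 to 8.97). With the eIF6 shRNA, replicate 4 was low for Abca4 on polysomes (5.14, others 5.78 to 5.84). Replicate 4 thus held 4 of the 5 arrays.

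The change of Abcc8 differed between the pools, with an effect on translational efficiency of 0.81 by the interaction of the limma model (adjusted p = 0.0258), but the call was lost in 12 settings (6 of the processing and 6 single arrays), and the probe detected on all 16 arrays gave 0.17 (adjusted p = 0.740).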

How the results depend on the processing

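The counts of members called kept within 1.5 times of those reported under the alternatives run, except as follows. With spike-in scaling 3 members were called on polysomes, 0 in the subpolysomal pool, 0 for efficiency and 28 for the scramble ratio (0 lower, 28 higher; shRNA ratio 0 and 22). Quantile normalization within each fraction called 30 members for the ratio in either shRNA, all higher. With 75th percentile scaling the efficiency gave 2 calls, and the scramble ratio had 13 lower and 4 higher, the shRNA ratio 12 and 6. Efficiency gave 0 calls with normexp background, probes detected on all 16 arrays, no filter, the brightest probe and the authors' table. Without replicate 4 of every group 18 members were called in the subpolysomal pool.

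Differences turned sign with spike-in scaling on polysomes for Abcf1 (-0.15), Abcf2 (-0.35), Abcf3 (-0.42) and Abcc5 (-0.022), and in the subpolysomal pool for Abcf1 (-0.083), Abcf2 (-0.21), Abcf3 (-0.17), Eif6 (-0.22) and Abcg2 (-0.047). Scramble ratios turned positive with spike-in scaling and within-fraction quantiles for Abcf3 (1.04 and 0.92), Abcb1b (1.13 and 1.01), Abcc3 (1.07 and 0.95) and Abca7 (1.06 and 0.94), and with spike-in scaling for Abcg4 (0.0023). The distance from the median of all genes moved as well, by the ranges given above.

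Leaving out 1 array at a time, 13 to 17 members were called on polysomes, 8 to 13 in the subpolysomal pool, 0 to 1 for efficiency, 13 to 20 for the scramble ratio (5 to 13 lower, 7 to 10 higher) and 17 to 21 for the shRNA ratio. The polysomal difference of Abcf3 ran from -0.11 to 0.32, and the subpolysomal ones of Abcf2 from -0.034 to 0.23 and of Eif6 from -0.028 to 0.057.

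Arrays of the same number mostly did not deviate together (correlations -0.157 to 0.413). The exception was the replicate 4 polysomal arrays of scramble and eIF6 shRNA cells, at 0.413, while all other correlations were 0.117 or lower. Why these arrays deviated in part alike was not tested. With the replicate block 15, 10, 1, 17 and 18 members were called in the 5 comparisons. Low signal limits Abca1 and Abcc12, and 13 transporters lay below the background limit on every array.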
